A study of Homo sapiens with 12 samples.

Results

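The luminal and basal keratins are 10 genes chosen by symbol from the 60106 genes of the count tables, and all 10 were found. KRT8, KRT18 and KRT19 are the luminal keratins of the prostate gland, and KRT5, KRT14, KRT15 and KRT17 are its basal keratins. KRT7, KRT13 and KRT80 complete the set. The tables hold 45 other keratin genes, 55 in all, which are given for comparison. The RNA came from PC3 and VCaP, 2 established human lines of prostate cancer, in 4 groups of 3 libraries. Cells received either non-targeting siRNA (NSI) or siRNA against FOXA1 (siFOXA1), a forkhead transcription factor of luminal prostate cells, and were harvested at 72 hours. PC3, an androgen-independent line from a bone metastasis, received 20 nM siRNA in RPMI medium, and its libraries were made with the TruSeq stranded mRNA kit. VCaP, a line from a vertebral metastasis, received 40 nM in DMEM, and its libraries were made with the TruSeq total RNA kit. Line, dose, medium and kit therefore cannot be told apart. The sequences of the siRNAs are not given in the sources used here. Nothing in the labels says that replicates came from separate cultures, so the p-values measure only the spread between these libraries, which may be technical.

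Keratins are the intermediate filament proteins of epithelia. A filament is built from pairs of a type I and a type II chain, and a chain without a partner is usually degraded. In the prostate, luminal secretory cells carry the pair KRT8 and KRT18, often with KRT19, while basal cells that rest on the basement membrane carry the pair KRT5 and KRT14, with KRT15 and KRT17 in part of them. Most adenocarcinomas keep the luminal pair and lose the basal one, which is why pathologists stain for basal keratins. KRT8, KRT5, KRT7 and KRT80 are type II chains, and KRT18, KRT19, KRT14, KRT15, KRT17 and KRT13 are type I chains.

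On the GRCh37 coordinates of the deposited tables, the type II members lay in the keratin cluster of chromosome 12, on the minus strand except KRT7. KRT8 (ENSG00000170421.12_4) spanned chr12:53290971-53343658, and the type I gene KRT18 (ENSG00000111057.10_4) lay beside it on the plus strand at chr12:53342655-53346685. Their annotated exons overlapped on opposite strands, over 2.95% of the exon length of KRT8 and 6.72% of that of KRT18. The other type I members lay on the minus strand of chromosome 17, where KRT13, KRT15, KRT19, KRT14 and KRT17 followed one another from position 39657233 to 39780829. Of the 10 members, the RefSeq promoter table (GRCh38.p14) held KRT8 and KRT5, the type II chains of the luminal and of the basal pair, so these 2 windows are shown, from 250 bases before to 50 bases after the annotated gene start, with matches to the searched motifs in capitals.
KRT8 (chr12:52926420-52926719, minus strand): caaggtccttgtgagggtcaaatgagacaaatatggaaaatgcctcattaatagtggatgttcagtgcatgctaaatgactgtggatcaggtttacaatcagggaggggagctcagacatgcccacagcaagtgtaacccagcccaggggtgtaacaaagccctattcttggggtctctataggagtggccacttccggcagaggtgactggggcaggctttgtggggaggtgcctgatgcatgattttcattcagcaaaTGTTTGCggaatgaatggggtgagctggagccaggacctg
KRT5 (chr12:52520345-52520644, minus strand): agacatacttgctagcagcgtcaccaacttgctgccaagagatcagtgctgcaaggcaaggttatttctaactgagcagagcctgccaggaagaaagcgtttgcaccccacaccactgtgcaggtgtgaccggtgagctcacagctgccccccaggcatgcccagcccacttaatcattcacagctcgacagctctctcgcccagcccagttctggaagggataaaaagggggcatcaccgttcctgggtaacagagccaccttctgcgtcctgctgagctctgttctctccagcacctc
The search covered both strands for the forkhead motifs TGTTTAC and TGTTTGC, the AP-1 motif TGANTCA, the Sp motif GGGCGG and the TATA motif TATAAA. The KRT8 window held a single match, TGTTTGC, which began 10 bases after the start, and 3.89% of the 35116 promoters in the table hold that motif. No match was found in the KRT5 window. The other motifs were in 3.42% (TGTTTAC), 7.71% (TGANTCA), 45.0% (GGGCGG) and 11.5% (TATAAA) of the promoters. KRT8 has 18 annotated starts in GENCODE v44lift37, and its canonical transcript begins 44878 bases downstream of the first GENCODE start. That distance is not counted from the RefSeq start at which the window was placed. Which start these cells used was not tested, and the match is a description of letters only.

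FOXA1, the siRNA target, was at 303.4, 244.1 and 265.8 CPM (counts scaled by library size and the TMM factors of edgeR) in the PC3 NSI libraries and at 163.0, 182.2 and 161.9 CPM in the PC3 siFOXA1 libraries, 62.3% of the NSI mean. In VCaP it was at 457.6, 467.8 and 543.6 CPM in NSI against 85.2, 73.6 and 83.0 CPM in siFOXA1, 16.5% of the NSI mean. The groups did not overlap in either line, and the exact two-sided permutation test gave p = 0.1 in each, the smallest that 3 against 3 libraries allow. PC3 libraries held 123140099 to 188226483 counts and VCaP libraries 48187047 to 59839211, so a keratin at a given CPM rested on fewer fragments in VCaP. VCaP held the luminal gene KLK3, which encodes prostate-specific antigen, at 46.4 to 102 CPM. PC3 held it at no more than 0.0192 CPM, and its basal markers KRT5, KRT14 and TP63 summed to only 0.487 to 0.747 CPM. Among markers of other cell types in PC3, the 5 stromal markers summed to 23.9 to 28.02 CPM in NSI against 40.5 to 45.1 CPM in siFOXA1, the 4 neuroendocrine markers to 1.21 to 1.51 and 2.57 to 3.28 CPM, and the 4 immune markers to 0.228 to 0.248 and 0.413 to 0.485 CPM. In VCaP the same sums were 0.868 to 6.17 and 0.639 to 4.78 CPM, 38.8 to 50.4 and 29.0 to 38.8 CPM, and 0.721 to 0.921 and 2.30 to 3.00 CPM. The endothelial markers VWF and CDH5 summed to at most 0.288 CPM in PC3 and to 3.93 to 4.56 CPM in NSI against 1.69 to 2.02 CPM in siFOXA1 in VCaP. Single markers differed within these lists. DCN and CD3E stayed at or under 0.179 CPM in every library. In PC3 the stromal marker COL1A1 averaged 20.9 CPM in NSI and 31.5 CPM in siFOXA1, and COL1A2 averaged 3.57 and 10.6 CPM. In VCaP COL1A1 averaged 2.10 and 1.06 CPM, COL1A2 1.12 and 0.825 CPM, and the immune marker CD14 0.701 and 2.72 CPM. The part of these markers in the keratin changes was not tested.

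**Figure D1:**
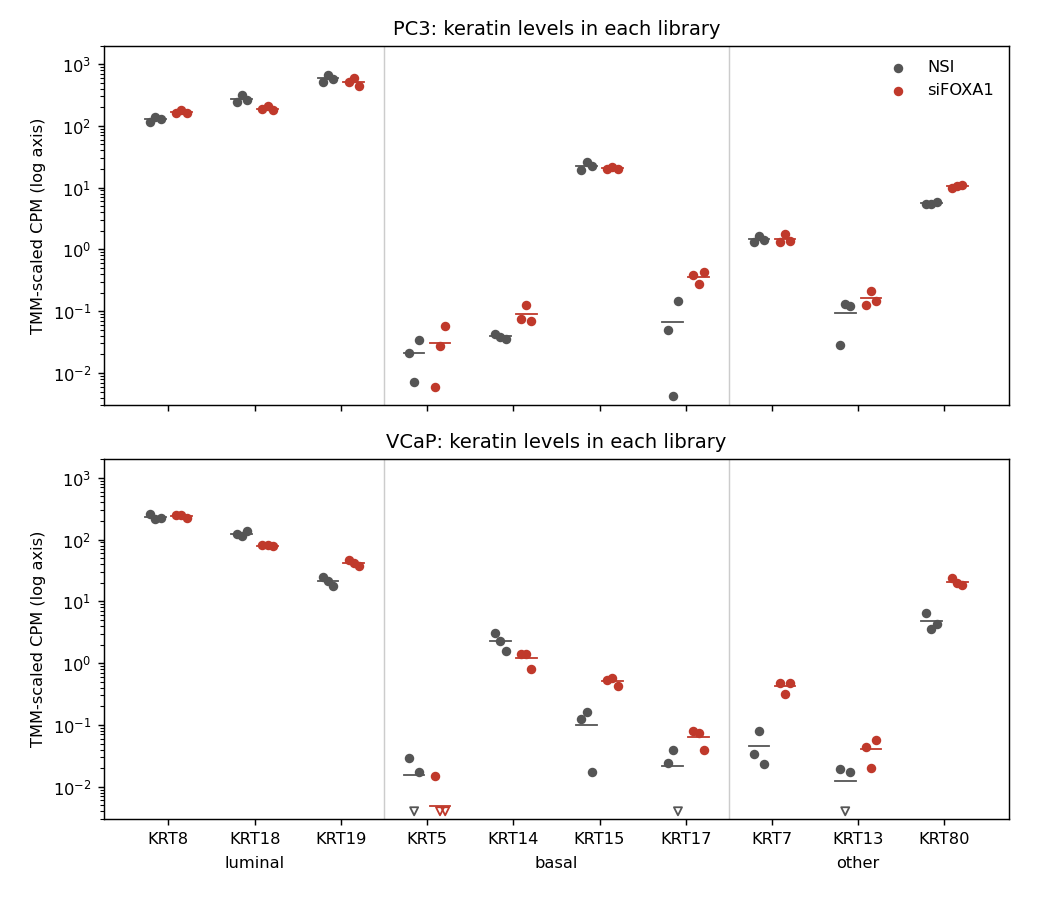
TMM-scaled CPM of the 10 keratins in each library (log axis), with PC3 above and VCaP below. Points are libraries, grey for NSI and red for siFOXA1, bars are group means of 3 libraries and open triangles at the lower edge mark libraries at 0. KRT8, KRT18 and KRT19 lie far above most other members in both lines, while KRT15 is high in PC3 only and KRT14 is above 0.8 CPM in VCaP only.

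In both lines the luminal chains were the most abundant members without the knockdown, with a different leading chain in each. Compared per kilobase of exon (CPM per kb), the levels in PC3 NSI ran from KRT19 at 422 ± 59.3 through KRT18 at 137 ± 20.3 and KRT8 at 27.8 ± 2.69 to KRT15 at 4.31 ± 0.614 (SD, n = 3 each). KRT80 and KRT7 followed at 1.44 ± 0.0516 and 0.834 ± 0.105 CPM per kb. KRT13, KRT17, KRT14 and KRT5 were all at or under 0.0505 CPM per kb on average. In this order the neighbours KRT13 and KRT17, and KRT17 and KRT14, had overlapping ranges, and all other neighbours were apart. KRT19 stood above 99.6% of protein-coding genes in PC3 NSI and KRT18 above 98.4%.

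In VCaP NSI the levels ran from KRT18 at 62.2 ± 5.39 and KRT8 at 50.2 ± 5.14 to KRT19 at 15.4 ± 2.61 CPM per kb (SD, n = 3 each). KRT14 at 1.38 ± 0.450 and KRT80 at 1.23 ± 0.394 CPM per kb came next with overlapping ranges. KRT7, KRT15, KRT17, KRT13 and KRT5 followed at 0.0259 CPM per kb or less, each overlapping its neighbour. The basal chain above the background of its group was thus KRT15 in PC3 and KRT14 in VCaP, and the partner of KRT14, KRT5, had at most 1.5 counts in a VCaP library. After FOXA1 siRNA, KRT8 replaced KRT18 at the head of the VCaP order, with no overlap between them. Lengths were merged exons. With the length of the canonical transcript, an alternative chosen after seeing the data, KRT8 already led KRT18 in VCaP NSI, by 1.46-fold, so the order of this pair depends on the length used.

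KRT18, the luminal type I chain, fell in both lines. PC3 libraries held 242, 321 and 264 CPM in NSI against 185, 208 and 178 CPM in siFOXA1. Every siFOXA1 library lay below every NSI library. The log2 fold change was −0.53 (SE 0.12, adjusted p = 0.0123 in the quasi-likelihood test of edgeR, Benjamini-Hochberg), and without siFOXA1 replicate 1 the adjusted p rose to 0.0813 at −0.49. VCaP libraries held 122, 116 and 137 CPM in NSI against 81.8, 81.1 and 77.4 CPM in siFOXA1, again with no overlap, and the log2 fold change was −0.64 (SE 0.07, quasi-likelihood test, adjusted p = 9.41e-05). The VCaP call held in all 15 alternatives, at adjusted p-values up to 0.000739. The difference between the lines, taken here and below as the VCaP effect minus the PC3 effect, was −0.12 (SE 0.15, quasi-likelihood test, adjusted p = 0.631) and was not called.

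KRT8, the type II partner of KRT18, did not fall with it. Its PC3 level was 115, 140.0 and 127 CPM in NSI against 159, 181 and 161 CPM in siFOXA1. The lowest siFOXA1 library was above the highest NSI library, and KRT8 rose by a log2 change of 0.39 (SE 0.10, quasi-likelihood test, adjusted p = 0.0220). This call was fragile, because it was kept when NSI replicate 2 was left out (0.50, adjusted p = 0.00602) and lost without any other single library. The adjusted p was then 0.0686 without NSI replicate 1, 0.0808 without NSI replicate 3, and 0.0564, 0.0598 and 0.0502 without siFOXA1 replicates 1, 2 and 3. Those fits had no block for the replicate number. With the block and all PC3 libraries the log2 change was 0.39 (quasi-likelihood test, adjusted p = 0.000893). In VCaP KRT8 was at 257, 212 and 221 CPM in NSI against 254, 249 and 227 CPM in siFOXA1. These groups overlapped, and the log2 fold change of 0.08 (SE 0.09, quasi-likelihood test, adjusted p = 0.476) was not called. Between the lines it differed by −0.32 (SE 0.14, adjusted p = 0.117), but with a block for the replicate number the same value had an adjusted p of 0.0212.

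KRT19, a type I chain without a tail domain, was the luminal keratin whose response differed most between the lines. The PC3 level was 506, 670.5 and 583 CPM in NSI against 513, 593 and 444 CPM in siFOXA1. The groups overlapped, and the log2 fold change of −0.18 (SE 0.14, quasi-likelihood test, adjusted p = 0.348) was not called. The VCaP level was 24.96, 21.6 and 17.7 CPM in NSI against 46.9, 42.0 and 37.6 CPM in siFOXA1. All siFOXA1 libraries were above all NSI libraries, and the rise was 0.98 on the log2 scale (SE 0.12, quasi-likelihood test, adjusted p = 0.000179), held in all 15 alternatives. Between the lines the effects differed by 1.15 (SE 0.20, quasi-likelihood test, adjusted p = 0.000547).

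The ratio of KRT8 to KRT18 set the luminal pair against each other within a library, where any scaling of the library cancels. Its PC3 values were 0.209, 0.191 and 0.211 in NSI against 0.376, 0.382 and 0.396 in siFOXA1, on the scale of CPM per kb. Its VCaP values were 0.920, 0.804 and 0.707 in NSI against 1.36, 1.34 and 1.29 in siFOXA1. The groups did not overlap in either line, and the mean was 1.89-fold higher in PC3 and 1.64-fold higher in VCaP after FOXA1 siRNA. A ratio shows only that the chains changed unequally: the higher ratio came with a rise of KRT8 and a fall of KRT18 in PC3, and with a called change of KRT18 alone in VCaP. The ratio of KRT19 to KRT18 was 1.27-fold higher in PC3 (3.08 to 3.91) and 3.04-fold higher in VCaP (0.250 to 0.760). These ratios were given no test, since the chains were chosen with earlier results known.

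**Figure D2:**
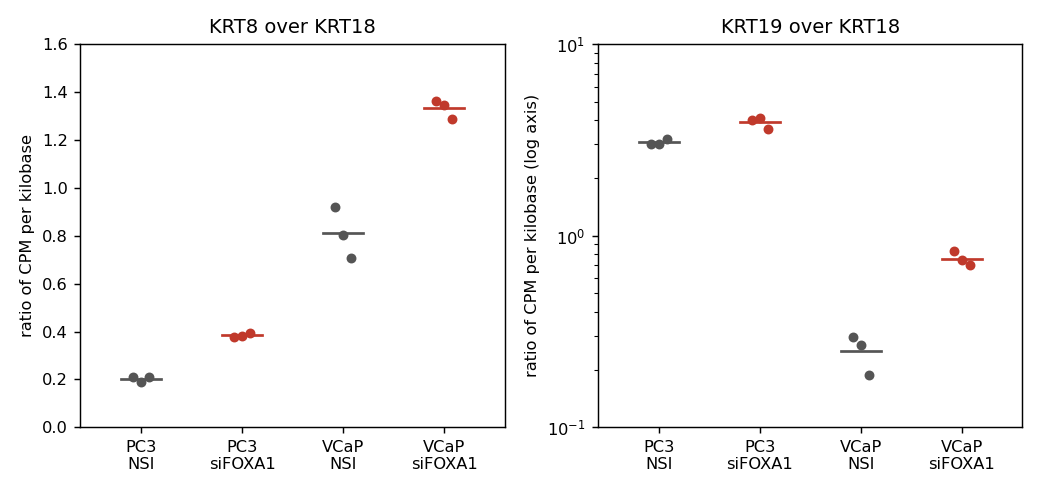
Ratio of KRT8 to KRT18 (left, linear axis) and of KRT19 to KRT18 (right, log axis) in each library, as CPM per kilobase over CPM per kilobase. Points are libraries and bars are means of 3 libraries. KRT8 over KRT18 is higher in every siFOXA1 library than in every NSI library of the same line, and KRT19 over KRT18 is about 3.04-fold higher in VCaP siFOXA1.

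The basal keratins did not move as a group, and most of them were close to absent. KRT5, the basal type II chain, had 3.09, 1.01 and 6.25 counts in PC3 NSI and 1, 3.42 and 10.2 counts in PC3 siFOXA1 (the authors divided shared fragments, so counts can be fractions). In VCaP it had 1.5, 0 and 1 counts in NSI against 0.75, 0 and 0 in siFOXA1. KRT5 failed the filter on low counts in both lines and was not tested. A count of 0 allows up to 3 fragments per library, so at this depth a fall of KRT5 was not detectable in VCaP.

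KRT14, the type I partner of KRT5, fell in VCaP. There it was at 3.06, 2.24 and 1.56 CPM in NSI against 1.40, 1.38 and 0.808 CPM in siFOXA1, from 158.8, 112.6 and 90 counts and 70.5, 69.5 and 42.4 counts. The groups did not overlap, and the log2 fold change was −0.93 (SE 0.28, quasi-likelihood test, adjusted p = 0.0227). The call was lost without NSI replicate 1 (−0.68, adjusted p = 0.0837), without NSI replicate 2 (adjusted p = 0.0512) and without siFOXA1 replicate 3 (−0.70, adjusted p = 0.0595). In PC3 KRT14 had 6.42, 5.24 and 6.5 counts in NSI against 12.7, 15.6 and 11.8 counts in siFOXA1. It passed the filter there only through its siFOXA1 libraries, and the log2 fold change of 1.21 (SE 0.44, quasi-likelihood test, adjusted p = 0.0716) was not called. Between the lines the effects differed by −2.13 (SE 0.53, quasi-likelihood test, adjusted p = 0.00900) and held in all 21 alternatives. The PC3 side of this difference rests on 18.2 counts in all NSI libraries and 40.1 in all siFOXA1 libraries. KRT14 also shares near-identical sequence with KRT16 and KRT17, so its counts are uncertain.

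KRT15, a type I chain of basal cells with no fixed partner, was measured well in PC3 and barely in VCaP. PC3 libraries had 19.4, 25.8 and 22.5 CPM in NSI against 20.0, 21.5 and 20.0 CPM in siFOXA1. The groups overlapped, and the log2 fold change was −0.14 (SE 0.11, quasi-likelihood test, adjusted p = 0.399). VCaP libraries had 0.125, 0.161 and 0.0174 CPM in NSI against 0.526, 0.577 and 0.419 CPM in siFOXA1, from 6.5, 8.1 and 1 counts and 26.5, 29 and 22 counts. The siFOXA1 libraries were all higher, with a log2 change of 2.31 (SE 0.44, quasi-likelihood test, adjusted p = 0.00221), but the mean of 0.507 CPM that KRT15 reached in VCaP siFOXA1 was far under its PC3 level. It passed the VCaP filter only through the siFOXA1 libraries, so this call carries no support of its own. Over the alternatives the adjusted p ran from 7.18e-06 to 0.00930. The lowest value came without a filter (2.30), where the adjusted p of KRT19 was lower too (1.59e-10), so it is no separate support. The difference between the lines was 2.45 (SE 0.41, quasi-likelihood test, adjusted p = 0.000469).

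KRT17, a type I chain of basal cells that injured and inflamed epithelia induce, rose in PC3 from a very low level. It was at 0.0503, 0.00431 and 0.146 CPM in NSI against 0.382, 0.271 and 0.425 CPM in siFOXA1, from 7.42, 0.6 and 26.5 counts and 64.2, 34.1 and 73.7 counts. All siFOXA1 libraries were higher than all NSI libraries, which differed widely among themselves. The log2 fold change was 2.33 (SE 0.62, quasi-likelihood test, adjusted p = 0.0235). KRT17 passed the filter on low counts only through its siFOXA1 libraries. The log2 fold change was 3.66 without NSI replicate 3, and the call was lost without NSI replicate 1 (adjusted p = 0.0600), siFOXA1 replicate 1 (0.0703) or siFOXA1 replicate 3 (0.0688). KRT17 shares near-identical sequence with 3 annotated pseudogenes and with KRT14 and KRT16, so its counts are uncertain. With the counts of its pseudogenes added, the log2 fold change was 1.79 (adjusted p = 0.0342). In VCaP KRT17 had 1.25, 2 and 0 counts in NSI against 4, 3.67 and 2.1 counts in siFOXA1 and was not tested in that line.

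KRT80, a type II chain found in many epithelia and not tied to the luminal or basal layer, rose in both lines. Its PC3 level was 5.53, 5.49 and 5.85 CPM in NSI against 9.72, 10.4 and 11.2 CPM in siFOXA1. Its VCaP level was 6.52, 3.59 and 4.25 CPM in NSI against 24.0, 19.8 and 18.4 CPM in siFOXA1. The groups did not overlap in either line. The VCaP NSI range held all 3 PC3 NSI values, but each line was scaled alone and had its own kit, so equal levels cannot be read from this. The log2 fold change was 0.90 in PC3 (SE 0.10, quasi-likelihood test, adjusted p = 0.000436) and 2.11 in VCaP (SE 0.20, quasi-likelihood test, adjusted p = 2.79e-05). Both calls held in all 15 alternatives, and KRT80 was the sole member called in PC3 without siFOXA1 replicate 1. The rise was larger in VCaP, by 1.20 (SE 0.23, quasi-likelihood test, adjusted p = 0.00143).

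KRT7, a type II chain of simple and glandular epithelia, had a called rise in VCaP and none in PC3. Its PC3 level was 1.30, 1.66 and 1.42 CPM in NSI against 1.31, 1.76 and 1.35 CPM in siFOXA1, with overlapping groups and a log2 change of 0.01 (SE 0.18, quasi-likelihood test, adjusted p = 0.984). In VCaP it was at 0.0337, 0.0797 and 0.0231 CPM in NSI against 0.480, 0.318 and 0.476 CPM in siFOXA1, from 1.75, 4 and 1.33 counts and 24.2, 16 and 25 counts. The rise was 3.20 on the log2 scale (SE 0.43, quasi-likelihood test, adjusted p = 0.000280) and stayed between 2.80 and 3.83 over 15 alternatives. KRT7 passed the VCaP filter only through its siFOXA1 libraries. The difference between the lines was 3.22 (SE 0.48, quasi-likelihood test, adjusted p = 0.000168), the largest among the members.

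KRT13, a type I chain of stratified lining epithelia and of cells between the basal and luminal state, had no called change. PC3 libraries held 0.0279, 0.131 and 0.123 CPM in NSI against 0.125, 0.215 and 0.144 CPM in siFOXA1, with overlapping groups. The log2 fold change was 0.75 (SE 0.52, quasi-likelihood test, adjusted p = 0.313). In VCaP it had 1, 0 and 1 counts in NSI against 2.25, 1 and 3 counts in siFOXA1, at or under 3 counts in every library, and it was not tested. A transcript on the other strand overlaps 25.5% of the exon length of KRT13, and the PC3 counts ignored strand, so reads of the pair cannot be told apart there.

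In PC3, 4 of the 9 tested members were called at an adjusted p under 0.05, with KRT8, KRT17 and KRT80 higher and KRT18 lower. Of all 26478 genes tested in PC3, 27.7% were called, 13.9% higher and 13.9% lower. Scaled by library size alone, the split over all genes moved from 3675 higher and 3669 lower to 4607 higher and 2562 lower, while the members called stayed the same. A block for the replicate number raised the calls to 11333 genes, and the members called again stayed the same. The median log2 fold change of the tested members was 0.39, against −0.01 over all genes. KRT14, KRT17 and KRT13 had passed the filter only through their siFOXA1 libraries, so this count and median carry no support of their own. KRT80 alone was left without siFOXA1 replicate 1, and KRT18 and KRT80 without NSI replicate 1 or siFOXA1 replicate 3.

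In VCaP, 6 of the 7 tested members were called, with KRT19, KRT7, KRT15 and KRT80 higher and KRT18 and KRT14 lower. The share among all 22939 genes tested there was 45.8%, 22.5% higher and 23.3% lower. The median log2 fold change of these members was 0.98, against 0.02 over all genes. KRT7 and KRT15 had passed the filter through their high group, so these counts carry no support of their own. Groups that did not overlap made up 45.1% of all genes tested in PC3 and 55.9% in VCaP. Called in the same direction in both lines were KRT18 and KRT80, 2 of the 7 members tested in both, where 11.0% of 19282 genes were called in this way. Of the 9 members in the fit of both lines, 5 differed between the lines, against 22.1% of 30450 genes (11.1% with the VCaP effect higher and 11.1% with it lower). KRT19, KRT7, KRT15 and KRT80 were more positive in VCaP and KRT14 more negative.

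**Figure D3:**
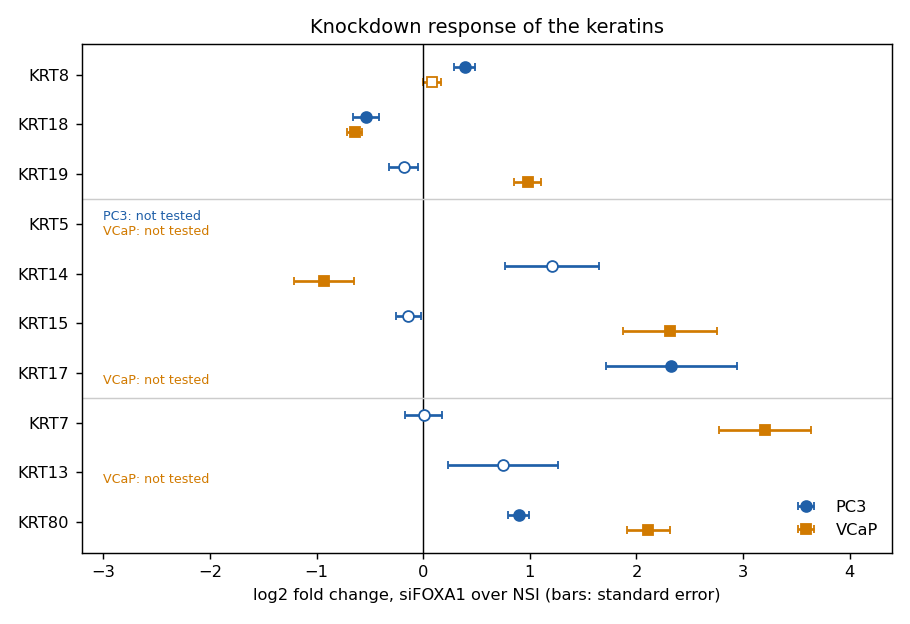
Log2 fold change of each keratin, siFOXA1 over NSI, with its standard error, in PC3 (circles) and VCaP (squares). Filled symbols have an adjusted p of the edgeR quasi-likelihood test under 0.05, and members that failed the filter on low counts are written as not tested. KRT18 lies left of 0 and KRT80 right of 0 in both lines, while KRT19, KRT15, KRT7 and KRT14 lie apart between the lines.

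Summed per kilobase, the luminal chains ran from 509 to 673 CPM per kb in PC3 NSI and from 443 to 569 in PC3 siFOXA1, and the ranges overlapped. In VCaP the luminal sum was 119.5 to 135 CPM per kb in NSI against 115 to 129.9 in siFOXA1. The fall of KRT18 and the rise of KRT19 in VCaP thus left the sum of the 3 luminal chains at 0.965 times its NSI mean. The basal sum was 3.76 to 4.95 CPM per kb in PC3 NSI and 4.12 to 4.37 in siFOXA1, nearly all of it KRT15. In VCaP, where KRT14 made up most of it, the basal sum was 0.951 to 1.89 CPM per kb in NSI against 0.592 to 1.00 in siFOXA1. The basal share of the luminal and basal sums was 0.731% to 0.760% in PC3 NSI and 0.761% to 0.931% in PC3 siFOXA1. It was 0.731% to 1.38% in VCaP NSI and 0.512% to 0.786% in VCaP siFOXA1. The basal share was therefore low in all 12 libraries, and its mean was 1.13 times the NSI mean in PC3 and 0.629 times in VCaP. Its size depends on the length used, here merged exons. With the canonical length, KRT15 in PC3 NSI was at 13.2 instead of 4.31 CPM per kb, and KRT8 at 71.5 instead of 27.8. The shares of the 2 lines should thus not be ranked against each other. Over the 26 type II and 28 type I keratin genes of the tables, the ratio of type II to type I was 0.207 to 0.243 in PC3 NSI and 0.276 to 0.292 in siFOXA1. In VCaP it was 0.608 to 0.721 in NSI against 0.837 to 0.851 in siFOXA1, so type II chains took a larger share of keratin transcripts in every siFOXA1 library of both lines. These sums were given no test.

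Among the 45 other keratins, 11 reached a mean of 1 CPM in a line, 10 in PC3 and 2 in VCaP. In PC3, 19 of the 45 were tested, and 4 were called higher and 2 lower, with a median log2 fold change of 0.05. Of these 19, 3 passed the filter only through their siFOXA1 libraries, and 1 of the 3 was called higher. The 31.6% called lay near the 27.7% of all genes tested in PC3. KRT34, a hair keratin, rose from 1.24, 1.30 and 0.894 CPM in NSI to 4.82, 5.71 and 5.00 CPM in siFOXA1, a log2 change of 2.18 (SE 0.17, quasi-likelihood test, adjusted p = 5.75e-05). KRT20, the type I chain of intestinal and urothelial cells, fell from 4.20, 4.17 and 5.02 to 2.37, 2.78 and 2.74 CPM (−0.77, adjusted p = 0.00369). KRT10, the type I chain of suprabasal epidermis, had a log2 fold change of −0.53 (adjusted p = 0.0375). Scaling by library size alone ended that call (−0.44, adjusted p = 0.0658). Leaving out any single library except siFOXA1 replicate 2 ended it too, at adjusted p-values from 0.0652 to 0.169. Without NSI replicate 1, KRT75 was called lower in its place (−0.53, quasi-likelihood test, adjusted p = 0.0401).

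The most abundant other keratins in PC3 were KRT81, at 104 to 152 CPM, and KRT75, at 56.0 to 100.0 CPM, 2 type II chains known from hair. KRT81 had a log2 change of 0.11 (SE 0.15, quasi-likelihood test, adjusted p = 0.632). KRT75 had −0.44 (SE 0.14, adjusted p = 0.0517), and with the replicate block −0.42 (adjusted p = 0.00337), over a range of 0.00337 to 0.216 across the alternatives. The counts of KRT81, KRT83, KRT85 and KRT86 are uncertain because the genes are near-identical and shared fragments were divided. KRT83 and KRT85 spread over 0.788 to 6.02 CPM and 0.157 to 4.95 CPM in PC3, and KRT83, KRT85 and KRT86 had log2 fold changes of −0.09, −0.13 and 0.05 that changed sign with single libraries. KRT6B and KRT16, chains of activated keratinocytes, had −0.09 and −0.18 in PC3 and were not called.

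In VCaP, 7 other keratins were tested and 5 were called higher, none lower, with a median of 3.30. The share called was 71.4%, against 45.8% of all genes tested in VCaP. Of these 7, KRT75, KRT6B, KRT6C and KRT36 passed the filter only through their siFOXA1 libraries and so had to be higher, which leaves KRT2 as the 1 call that the filter did not favour. Without a filter on low counts 12 were called higher, and 8 in the fit of all 12 libraries. Over all genes, 5680 of 46135 were called higher without a filter and 4563 of 30450 in that fit. The number of other keratins tested in these 2 settings is not given here, so the 12 and the 8 carry no support of their own. KRT2, a type II chain of the upper epidermis, rose from 1.78, 2.21 and 1.42 CPM to 3.61, 3.50 and 3.00 CPM (0.90, SE 0.17, quasi-likelihood test, adjusted p = 0.00195). KRT75 rose from 0.116, 0.0847 and 0.191 CPM to 1.18, 1.51 and 1.26 CPM (3.30, adjusted p = 1.42e-05), and KRT6B from 0.0385, 0.0399 and 0.0348 CPM to 0.483, 0.462 and 0.466 CPM (3.56, adjusted p = 2.06e-05). Both were low in VCaP NSI, and KRT6B stayed under 1 CPM. In the fit of both lines, 22 other keratins were tested, and 7 were more positive in VCaP and none more negative. The share called was 31.8%, against 22.1% of all genes. KRT75, KRT6B, KRT6C and KRT36 are among these 7.

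Transcripts of genes whose proteins anchor, bind or modify keratin filaments changed in both directions in each line. In PC3, 2 of the 20 filament partners were higher and 3 lower, with a median of 0.02, and the 25.0% called lay near the 27.7% of all genes. The crosslinker MACF1 (0.52) and the envelope plakin EVPL (0.40) rose, and PKP1, a desmosomal plakophilin (−0.50), FAM83H, which brings casein kinase to keratin filaments (−0.52), and that kinase, CSNK1A1 (−0.29), fell. The call of CSNK1A1 was lost in 8 of 15 alternatives, among them library size alone (adjusted p = 0.132). With the replicate block 5 were higher, and the 2 rises were reduced to 0 without NSI replicate 3 or siFOXA1 replicate 1 and to 1 without siFOXA1 replicate 3. In VCaP 8 partners were higher and 6 lower, with a median of 0.13, 70.0% called against 45.8% of all genes. Of the 8, 1 passed the filter only through its siFOXA1 libraries and so had to be higher. JUP, the plakoglobin of desmosomes, rose from a mean of 158 to 317 CPM (1.00, SE 0.08, quasi-likelihood test, adjusted p = 1.46e-05), and the plakin PPL (1.47) and the adaptor TRADD (0.65) rose too. PKP1 fell from a mean of 122 to 30.6 CPM (−1.996, SE 0.08, adjusted p = 2.31e-07), with FAM83H (−0.69) and the neural filament gene NES (−0.97). PKP1 and FAM83H were thus lower in both lines. In the difference between the lines, 4 partners were more positive and 4 more negative in VCaP, 40.0% called against 22.1% of all genes.

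Of the 25 basal prostate genes other than keratins, 24 were tested in PC3, and 8 rose and 3 fell, with a median of 0.24. The share called was 45.8%, against 27.7% of all genes tested in PC3. Those that rose most were LAMB3, a laminin-332 chain (1.18), CDH3, the P-cadherin gene (1.17), and the collagen-binding integrin ITGA2 (0.98). S100A2 (−0.54), the zinc-finger repressor SNAI2 (−0.49) and SERPINB5, the maspin gene (−0.27), fell. The call of SERPINB5 was lost in 9 of 15 alternatives, at adjusted p-values up to 0.159. The 3 falls became 5 with the replicate block and 1 without siFOXA1 replicate 1. In VCaP 19 were tested, and 10 rose and 5 fell, with a median of 0.59, 78.9% called against 45.8% of all genes. COL17A1 and 3 others of the 10 passed the filter only through their siFOXA1 libraries and so had to be higher. The VCaP counts and median of this list therefore carry no support of their own. COL17A1, the hemidesmosomal collagen (6.89), LAMB3 (2.94) and the hyaluronan receptor CD44 (2.15) rose, and LAMA3 (−0.79), ITGA2 (−0.73) and EGFR (−0.68) fell. LAMB3 rose in both lines, as KRT80 did, whereas ITGA2 rose in PC3 and fell in VCaP. TP63, the master factor of basal cells, was at 0.405 to 0.641 CPM in PC3, had a log2 change of 0.01 (SE 0.24, quasi-likelihood test, adjusted p = 0.971) and failed the filter in VCaP. In the difference, 9 of 24 basal genes were more positive and 4 more negative in VCaP, 54.2% called against 22.1% of all genes. The 4 became 9 with the block and 2 without VCaP NSI replicate 1 or siFOXA1 replicate 3.

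Among luminal prostate genes other than keratins, those called lower outnumbered those called higher in both lines. Of 24 found by name in the tables, 19 were tested in PC3, with 4 higher and 7 lower and a median of −0.22. The share called was 57.9%, against 27.7% of all genes. The ETS factor SPDEF fell from a mean of 90.1 to 34.3 CPM (−1.40, SE 0.09, quasi-likelihood test, adjusted p = 2.38e-05), with ELF3 (−0.73) and the E-cadherin gene CDH1 (−0.69). STEAP2, a metalloreductase gene (0.87), and the acid phosphatase gene ACPP (0.81) rose, from 10.2 and 3.61 CPM. In VCaP, 23 were tested, with 4 higher and 13 lower and a median of −0.25, 73.9% called against 45.8% of all genes. Of the 4, 1 passed the filter only through its siFOXA1 libraries and so had to be higher. SPDEF (−3.07) and the prostein gene SLC45A3 (−2.86) fell, and DPP4 (2.19), FKBP5 (1.49) and NDRG1 (0.53) rose. The luminal keratins were not among these falls as a group, since KRT18 alone of the 3 fell in each line. In the difference, 6 of 23 were more positive and 8 more negative in VCaP, 60.9% called against 22.1% of all genes.

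Of 32 regulators of keratin genes, 29 were tested in PC3, with 7 higher and 9 lower and a median of 0.01. The share called was 55.2%, against 27.7% of all genes. EHF, an epithelial ETS factor, rose from a mean of 1.13 to 3.47 CPM (1.62, SE 0.15, quasi-likelihood test, adjusted p = 0.000154), and RUNX2 (0.85) rose too. The grainyhead factor GRHL1 (−0.95), ELF3 (−0.73) and the AP-2 factor TFAP2C (−0.71) fell. Without NSI replicate 3 or siFOXA1 replicate 1, 3 regulators were higher. In VCaP 28 were tested, with 13 higher and 5 lower and a median of 0.21, 64.3% called against 45.8% of all genes. Of the 13, 2 passed the filter only through their siFOXA1 libraries and so had to be higher. KLF4, a zinc-finger factor of epithelial differentiation, and the AP-1 subunit JUNB both rose by a log2 change of 1.37. KLF5 (−0.72), SOX4 (−0.62) and GRHL2 (−0.59) fell. In the difference, 8 of 32 were more positive and 3 more negative in VCaP, 34.4% called against 22.1% of all genes. The 3 became 7 with the block and 6 without PC3 siFOXA1 replicate 2. They became 5 with library size alone or DESeq2 or without VCaP siFOXA1 replicate 3. TP63, SNAI2 and NOTCH1 stand in both the basal and the regulator list, DST in the basal and the partner list, and ELF3 in the luminal and the regulator list.

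**Figure D4:**
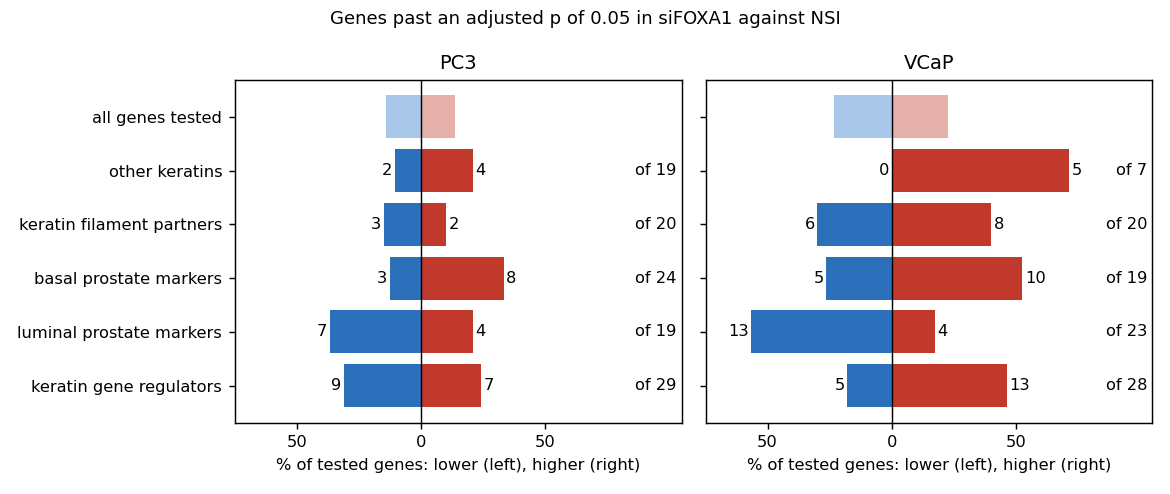
Percent of tested genes in each list that were called lower (blue, left) or higher (red, right) in siFOXA1 against NSI, at an adjusted p of the edgeR quasi-likelihood test under 0.05, with the number of genes at each bar and the number tested at the right. The paler bars are all genes tested, 13.9% lower and 13.9% higher in PC3 and 23.3% lower and 22.5% higher in VCaP. Luminal genes have the longer bar on the left, and basal genes on the right, in both lines. In VCaP, 4 of the 10 basal genes and 4 of the 5 other keratins called higher passed the filter only through siFOXA1 libraries. Those 2 bars therefore carry no support of their own.

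The genes whose pattern was most like that of KRT18 over the 12 libraries, after centring each line on its own mean, were PDRG1 (Pearson r 0.993), CCT3 (0.991) and SRRT (0.989) among 9879 genes. PDRG1 had log2 fold changes of −0.54 in PC3 and −0.64 in VCaP, close to those of KRT18. For KRT80 they were TSPAN1 (0.991), C1QTNF1 (0.990) and IGFBP3 (0.987), and IGFBP3 had log2 fold changes of 1.34 and 3.43. These are the highest values of many genes from the same libraries, which also share the knockdown, and no test was made of them.

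Fragments that mapped to several places were divided among genes, which matters for keratins with many processed copies. The 12 annotated pseudogenes of KRT8 held 4.84% to 5.97% of the counts of the gene and its copies in PC3 and 0.865% to 1.18% in VCaP. The 16 pseudogenes of KRT18 held 0.189% to 0.511% in PC3 and 1.62% to 2.88% in VCaP, and the 2 of KRT19 at most 0.295% in either line. Adding these counts to their genes changed no call of a member. A transcript on the other strand overlaps 12.6% of the exon length of KRT7, and since the PC3 counts ignored strand, reads of the pair cannot be told apart there, as for the overlap of KRT8 with KRT18.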

How the data were processed

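Gene-level RNA sequencing was analysed in 12 libraries, 3 each of PC3 NSI, PC3 siFOXA1, VCaP NSI and VCaP siFOXA1, grouped by their titles. The deposited values are expected counts (estimates) per gene, which per the file headers the authors made with featureCounts 2.0.0 on exons of the GENCODE v28lift37 basic annotation (GRCh37), requiring both ends mapped and dividing fragments with several positions or genes. Per the file headers PC3 counts ignored strand and VCaP counts used the reverse strand. STAR 2.7.3a is named in the submitters' processing notes. Between 54.8% and 75.2% of nonzero values were not whole, and they were rounded.

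Each line was fitted alone with edgeR 4.0.16 (R 4.3.3): TMM factors, filterByExpr, two-sided quasi-likelihood test, Benjamini-Hochberg adjustment over all genes tested, and a call at an adjusted p under 0.05. The filter asked for 0.0633 CPM in PC3 and 0.197 CPM in VCaP in at least 3 libraries. The coefficient of biological variation was 14.9% in PC3 and 9.89% in VCaP. VCaP and PC3 effects were compared by the interaction term of a fit of all 12 libraries. Fold changes include a small prior count, which understates changes near 0. Intervals between libraries cover neither mapping nor culture effects. The fit was tested on simulated data.

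Replicate numbers were checked for pairing by correlating, across 16613 genes in PC3 and 16420 in VCaP, how NSI and siFOXA1 libraries of equal number depart from the mean of their group. They were 0.45, 0.59 and 0.25 in PC3, all above 0.1, although NSI replicate 1 and siFOXA1 replicate 3 also gave 0.35. Equal numbers may thus be pairs in PC3, but the main fit had no term for them. The replicate block was only an alternative, so PC3 p-values given without it ignore this possible pairing. In VCaP they were 0.11, 0.03 and 0.39, and the numbers were not taken as pairs. Replicates of a group differed by a chi-square of 9.77 to 141 per degree of freedom, so none was a copy.

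The members and the lists were chosen with earlier results of these data known. All members and FOXA1 are named. Other keratins are named from a mean of 1 CPM in a line, and list genes are the up to 3 largest rises and 3 largest falls among calls with that mean, except TP63, KRT6C and KRT36, which were chosen after their values were seen. Some genes that the rule names are not reported here. Genes most like a member were sought for members called in both lines, among genes with at least 5 CPM in each line, by Pearson correlation of log2(CPM + 0.5). CD24 and PECAM1 were not matched by name. Alternatives were DESeq2 1.42.0 and its size factors, upper-quartile factors, library size alone, no filter, a filter in each line, a replicate block, pseudogene counts summed, counts not rounded, the fit of all 12 libraries, a minimum log2 change of 1, and each library left out. Promoters came from RefSeq (GRCh38.p14) and matched 2 of 10 members by symbol.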

Additional observations from a re-analysis of the deposited data

Results flagged for a closer look

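The response to FOXA1 siRNA differed between the lines, by the interaction test of edgeR (VCaP effect minus PC3 effect, log2, Benjamini-Hochberg adjusted p under 0.05), for 5 members. The difference was 1.15 for KRT19 (−0.18 in PC3 and 0.98 in VCaP), 3.22 for KRT7 (0.01 and 3.20), 2.45 for KRT15 (−0.14 and 2.31) and 1.20 for KRT80 (0.90 and 2.11). For KRT14 it was −2.13 (1.21 and −0.93), with a PC3 effect that was not called and rested on at most 15.6 counts in a library. The siRNA target FOXA1 differed too, by −1.94 (−0.68 and −2.60). Among the other keratins named, KRT75 differed by 3.73, KRT6B by 3.68 and KRT10 by 1.06. Dose, medium and kit differed with the line and cannot be told apart from it. KRT7, KRT15, KRT75 and KRT6B were each under 0.2 CPM in every VCaP NSI library and above 1 CPM in every PC3 library.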

How the results depend on the processing

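The 15 alternatives in each line kept the direction and the call of KRT80 and FOXA1 in both lines, and in VCaP those of KRT18, KRT19, KRT7 and KRT15. KRT7 and KRT15 passed the VCaP filter only through their siFOXA1 libraries, so that their calls were kept carries no support of its own. The number of members called stayed 4 in PC3, 6 in VCaP and 5 or 6 in the difference under each scaling, tool, filter and rounding. It was 1 to 4 in PC3, 5 to 6 in VCaP and 5 to 6 in the difference when single libraries were left out. A minimum log2 change of 1 left 1 member in PC3 (KRT17), 3 in VCaP (KRT7, KRT15 and KRT80) and 5 in the difference. KRT17 passed the PC3 filter only through its siFOXA1 libraries, as KRT7 and KRT15 did in VCaP. The share of all genes past this minimum is not given here, so these counts carry no support of their own. With the replicate block the counts were 4, 6 and 6, and the block changed no member call other than the difference of KRT8; it also raised the PC3 calls over all genes from 7344 to 11333.

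Changes of sign were seen in values that were not called with all libraries. KRT83 in PC3 was called once its sign had changed, at 1.54 without NSI replicate 3 (adjusted p = 0.0289). KRT83 in PC3 was 0.0031 with library size alone and 0.41 with the replicate block, KRT85 in PC3 0.10 with that block, and the difference of KRT20 0.044 with counts not rounded. With single libraries left out, PC3 values ran from −0.22 to 0.012 for KRT15, −0.14 to 0.15 for KRT7, −0.32 to 0.0018 for KRT16, −0.039 to 0.24 for KRT81, −0.48 to 1.54 for KRT83, −0.96 to 0.45 for KRT85 and −0.13 to 0.28 for KRT86. The differences ran from −1.998 to 0.34 for KRT17, −0.71 to 0.24 for KRT16, −2.47 to 0.73 for KRT20, −4.86 to 1.93 for KRT34 and −0.21 to 1.44 for KRT85. The cause was not tested. Depth limited KRT5, KRT17 and KRT13 in VCaP, which had at most 4 counts in a library.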
